A study of Mus musculus with 28 samples.

Results

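The cathepsins are the main proteases of the lysosome. The genes described here are 10 cathepsin genes, taken by their symbols from a table of 55450 genes in 12 RNA-seq libraries: Ctsa, Ctsb, Ctsc, Ctsd, Ctse, Ctsh, Ctsk, Ctsl, Ctss and Ctsz. All 10 were in the table. The cells were C10, a mouse Pre-B cell line derived from HAFTL cells, which carries the CEBPalpha-ER transgene, a fusion of the transcription factor C/EBPα with the hormone-binding part of the estrogen receptor. The fusion protein enters the nucleus when β-estradiol is added, and the cells then turn into macrophage-like cells. The transgene was present at every time point, 0h included. The 4 groups were 0h (before induction) and 1h, 12h and 48h after adding 100 nM β-estradiol with 10 nM IL-3 and with CSF-1, with 3 biological replicates each. All libraries come from 1 cell line, and the inducers were given together, so that the action of the transgene and of the 2 cytokines cannot be told apart. Promoter Capture Hi-C (PCHi-C), which lists the restriction fragments that contact a promoter fragment, was given as 1 merged list per time point from 2 replicates.

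Cathepsins are made as inactive precursors, carried to the lysosome on mannose 6-phosphate or sortilin receptors, and activated there by removal of a propeptide. Most are cysteine proteases of the papain family (Ctsb, Ctsc, Ctsh, Ctsk, Ctsl, Ctss, Ctsz). Ctsd and Ctse are aspartic proteases, and Ctsa is a serine carboxypeptidase. In macrophages they degrade engulfed material, and in antigen-presenting cells Ctss and Ctsl cut the invariant chain of MHC class II.

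All 7 cathepsin genes that were expressed above a mean of 0.1 TPM (transcript abundance scaled to gene length and library total) were higher at 48h than at 0h, but on different schedules. Ctsc and Ctsz were already higher at 1h, Ctsd first rose at 12h, and Ctss rose between 12h and 48h. Ctsh, Ctsk and Ctsl stayed at or below 0.20 TPM in all 12 libraries. The summed TPM of the 10 genes started from 50.8 ± 3.60 at 0h (SD, n = 3). It was 106 ± 9.18 after 1h and 416 ± 44.3 after 12h of induction, and it came to 709 ± 95.2 at 48h, a ratio of 13.9 between 48h and 0h. TPM are relative to all RNA of a library, of which 70.3 to 82.9% fell on 1 ribosomal RNA locus. Median-of-ratios scaling sets the libraries to a common level over the genes with a nonzero TPM in all 12 libraries. After this scaling, the ratio at 48h was 18.4 and that at 1h was 1.32 in place of 2.09. In bulk RNA a change in the number of expressing cells and a change in RNA per cell cannot be told apart.

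**Figure D1:**
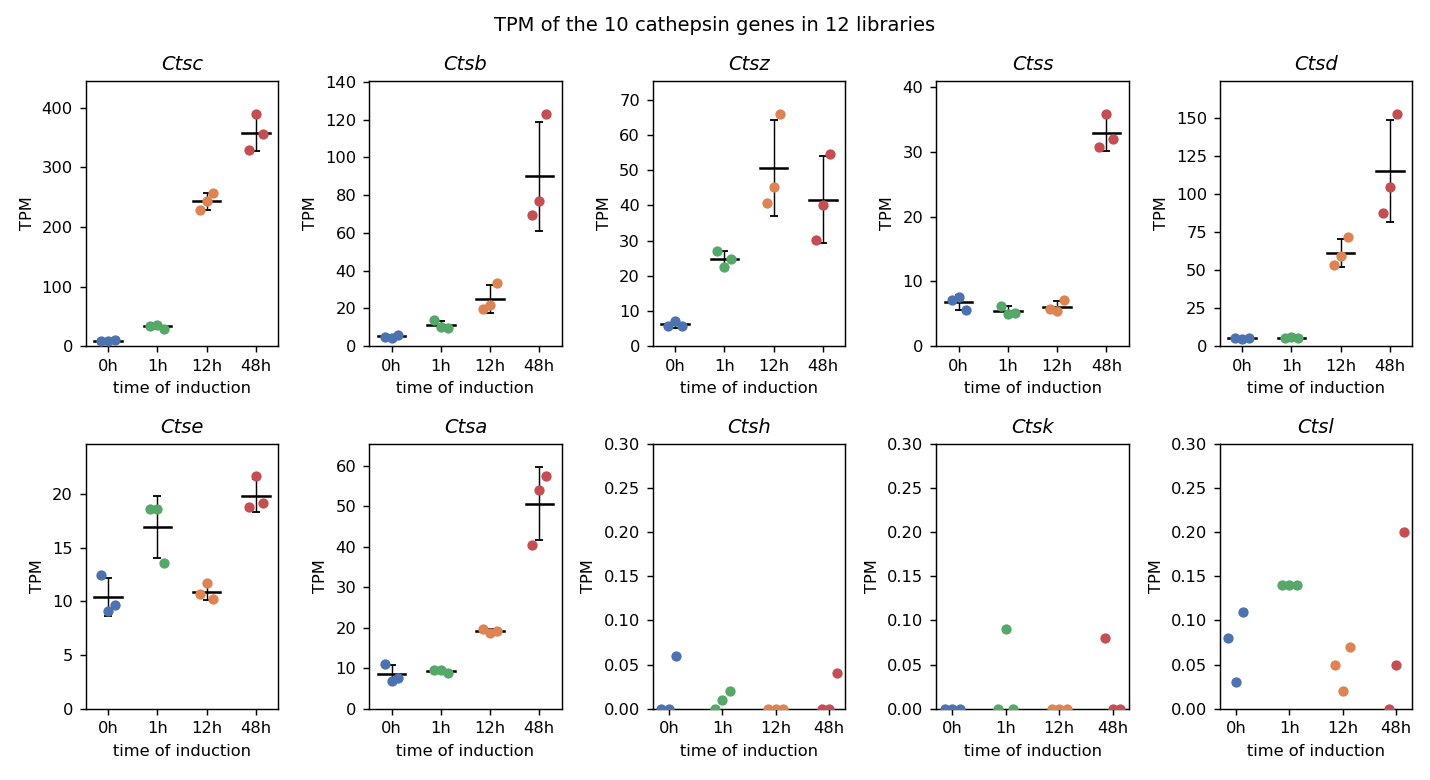
TPM (linear axis from 0) of each cathepsin gene at each time of induction, 1 point per library, with the mean (bar) and SD (whisker) of 3 libraries for the 7 genes above 0.1 TPM. Ctsc reaches 329 to 391 TPM at 48h, Ctss lies above its 0h range at 48h and not before, and Ctsh, Ctsk and Ctsl stay at or below 0.20 TPM.

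Promoter windows are printed here for the 4 members expressed above a mean of 0.1 TPM that held matches to the motifs searched. The motifs are those of factors that act on lysosomal or myeloid genes. Windows of Ctsk and Ctsl, which also held matches, are not printed. Each runs from 250 bases before to 50 bases after a RefSeq start (GRCm38.p6, 5′ to 3′ on the gene's strand). A window was given for 7 of the 10 members (Ctsb, Ctse and Ctsh had none). Capitals mark matches on either strand to the core of the lysosomal CLEAR element bound by TFEB and TFE3 (CACGTGAC) in Ctsd and Ctsa, or to a PU.1 motif (GAGGAAGT) in Ctsc and Ctss.

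Ctsd, chr7:142387778-142388077, minus strand: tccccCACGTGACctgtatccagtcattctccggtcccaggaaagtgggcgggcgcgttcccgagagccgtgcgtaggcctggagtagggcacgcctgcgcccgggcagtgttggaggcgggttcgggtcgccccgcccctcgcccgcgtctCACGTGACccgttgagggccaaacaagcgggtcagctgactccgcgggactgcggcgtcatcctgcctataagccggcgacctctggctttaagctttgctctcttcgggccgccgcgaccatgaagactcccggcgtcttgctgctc

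Ctsa, chr2:164833523-164833822, plus strand: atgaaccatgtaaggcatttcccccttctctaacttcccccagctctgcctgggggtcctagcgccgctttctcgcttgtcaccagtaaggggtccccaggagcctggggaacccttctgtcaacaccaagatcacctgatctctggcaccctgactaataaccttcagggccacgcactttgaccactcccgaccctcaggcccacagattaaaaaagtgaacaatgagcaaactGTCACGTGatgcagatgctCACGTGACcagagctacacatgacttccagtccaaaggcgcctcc

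Ctsc, chr7:88277835-88278134, plus strand: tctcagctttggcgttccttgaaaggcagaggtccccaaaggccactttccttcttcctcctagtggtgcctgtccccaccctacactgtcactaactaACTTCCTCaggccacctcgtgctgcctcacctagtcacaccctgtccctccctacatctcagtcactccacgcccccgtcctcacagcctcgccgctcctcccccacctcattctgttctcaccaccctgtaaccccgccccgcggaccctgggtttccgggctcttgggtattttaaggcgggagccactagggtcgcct

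Ctss, chr3:95526536-95526835, plus strand: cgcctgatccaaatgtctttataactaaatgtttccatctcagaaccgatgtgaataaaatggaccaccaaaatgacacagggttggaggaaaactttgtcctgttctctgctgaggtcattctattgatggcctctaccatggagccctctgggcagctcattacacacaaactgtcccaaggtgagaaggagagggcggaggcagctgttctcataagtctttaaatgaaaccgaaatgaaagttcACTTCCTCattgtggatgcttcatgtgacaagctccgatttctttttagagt

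The Ctsd window held 2 matches to CACGTGAC, starting 245 and 98 bases before the start. This Ctsa window, 1 of 2 for the gene, held 2 matches, of which 1 begins 14 bases before the start and the other just after it. CACGTGAC occurred in 2.25% of the 32851 mouse promoter windows and at least 2 times in 0.463%. The PU.1 match lay 151 bases before the start in Ctsc and 2 bases before it in Ctss, and this motif occurred in 3.20% of windows. The C/EBP motif TTNNGCAA (10.8% of windows) matched the windows of Ctsk 2 times and of Ctsl 1 time. Neither gene was above 0.20 TPM in any library, and the motif had no match in the windows of Ctsa, Ctsc, Ctsd, Ctss or Ctsz. CACGTG (7.15% of windows), which lies inside CACGTGAC, also matched Ctsl 1 time. The Ctsz window matched none of the 4 motifs. A match in these letters is a description of the window and says nothing of binding.

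Replicate 3 of each time point stood apart from replicates 1 and 2. As deviations from the time point means over all tested genes, 5 of 6 pairs of replicate 3 libraries correlated over 0.1 (0.07 to 0.26). All 24 pairs of replicate 3 with replicate 1 or 2 correlated below 0. Deviations within a time point sum to 0, so these negative values follow largely from the positive ones and are no separate support. With all 4 replicate 3 libraries left out, a setting chosen after seeing the data, no count or call of the members given below for TPM as deposited changed.

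The question of the time course was which genes change as Pre-B cells become macrophage-like cells. Each gene was tested with limma on log2(TPM + 0.1) over all 12 libraries, with Benjamini-Hochberg adjustment over the 16415 genes whose mean was at least 0.1 TPM. On this scale fold changes of low genes are understated. The 7 tested members are those that passed this filter, and the other 3 were not tested. All 7 passed as higher at 48h against 0h, where 15.9% of all tested genes were called higher and 27.2% lower. Their median log2 fold change was 2.70, while the median over all genes was -0.18. At 12h against 0h, 5 passed as higher and none as lower (backgrounds 22.3% and 7.82%), and after median-of-ratios scaling 5 as higher and 1 as lower (backgrounds 16.0% and 14.5%). At 1h against 0h, 4 passed as higher and none as lower (backgrounds 24.1% and 1.41%), with a median over all genes of 0.59. Median-of-ratios scaling brought that median to 0.02, and then 2 members were called higher (background 5.42%) and 1 lower (background 4.92%). Overlap of libraries is given below for TPM as deposited. Of all tested genes, 40.8% had every library higher without overlap at 1h against 0h, 30.6% at 12h and 19.2% at 48h. These shares were 12.1% at 12h against 1h and 5.81% at 48h against 12h.

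Ctsc (dipeptidyl peptidase I) removes dipeptides from the ends of proteins and activates the serine proteases of neutrophil, mast cell and killer cell granules. It had 8.47, 7.97 and 9.54 TPM at 0h, and 34.42, 35.79 and 28.87 TPM at 1h. It reached 228.40, 244.04 and 257.15 TPM at 12h, and 329.49, 390.55 and 356.10 TPM at 48h. No group overlapped another, and Ctsc was the highest cathepsin from 1h on. The log2 fold change was 1.92 (SE 0.14, limma adjusted p = 1.09e-05) at 1h. It was 4.80 at 12h, and 5.36 (SE 0.14, adjusted p = 3.41e-10) at 48h. The step from 12h to 48h was 0.56 (SE 0.14, limma adjusted p = 0.0106), and it missed the threshold after quantile normalization (adjusted p = 0.101). An antisense lincRNA, Gm26522, overlaps 4743 bases of Ctsc and went from a mean of 0.13 to 8.69 TPM. The library kit does not mark strand, so reads in the overlap cannot be assigned to either gene.

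Ctsz (cathepsin X) is a carboxypeptidase that also binds integrins. Its levels were 5.59, 7.25 and 5.67 TPM at 0h, 27.07, 22.59 and 24.77 TPM at 1h, 40.61, 45.12 and 66.14 TPM at 12h, and 30.10, 40.17 and 54.61 TPM at 48h. Every library from 1h on was above every 0h library, and the 12h and 48h libraries overlapped. The log2 fold change was 2.00 (SE 0.24, limma adjusted p = 0.000259) after 1h. It was 2.99 at 12h and 2.70 at 48h. The 12h to 48h difference was -0.29 (SE 0.24, limma adjusted p = 0.382) on TPM as deposited and 0.46 (adjusted p = 0.113) after median-of-ratios scaling, so its direction turned with the scaling. Ctsz was the only tested member that did not pass the test between 12h and 48h.

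Ctsb, an abundant endo- and exopeptidase of the lysosome, rose from 1h to 12h and from 12h to 48h, and its rise at 1h depended on the scaling. The calls of Ctsb and Ctsz from 1h to 12h were lost without the filter on low values (limma adjusted p = 0.0713 and 0.0772). It had 4.96, 4.52 and 5.85 TPM at 0h, 13.68, 9.96 and 9.83 TPM at 1h, 19.56, 21.74 and 33.62 TPM at 12h, and 69.58, 76.84 and 123.14 TPM at 48h. No 2 time points overlapped on TPM as deposited (of all tested genes, 40.8% were higher without overlap at 1h against 0h). Its log2 fold change at 48h was 4.07 (SE 0.26, limma adjusted p = 2.67e-07), and that from 12h to 48h was 1.84 (SE 0.26). The 1h change of 1.10 (SE 0.26, adjusted p = 0.0116) was 0.45 (adjusted p = 0.217) after median-of-ratios scaling and missed the threshold. It also missed it without 1h replicate 1 (adjusted p = 0.0533) and without the filter on low values (adjusted p = 0.0735).

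Ctss, which stays active at neutral pH and trims the MHC class II invariant chain, was the late member. The 0h libraries had 7.07, 7.66 and 5.50 TPM, the 1h libraries 6.26, 4.92 and 5.11 TPM, and the 12h libraries 5.74, 5.36 and 7.05 TPM. At 48h the values were 30.75, 35.93 and 32.01 TPM, all above the overlapping ranges of the earlier times. From 12h to 48h the log2 fold change was 2.43 (SE 0.18, limma adjusted p = 3.30e-06), which is the largest of the 7 members at that step. Against 0h it was -0.30 (SE 0.18, limma adjusted p = 0.237) at 1h and -0.15 (adjusted p = 0.569) at 12h. After median-of-ratios scaling these were -0.95 (adjusted p = 0.00146) and -0.48 (adjusted p = 0.0224), both called lower.

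Ctsd, an aspartic protease of the lysosome, rose from 12h on. Its levels were 5.22, 4.73 and 5.28 TPM at 0h and 5.11, 5.94 and 5.42 TPM at 1h, which overlapped. They were 53.47, 59.35 and 71.51 TPM at 12h and 87.62, 104.73 and 152.74 TPM at 48h, with no overlap with any other time. The log2 fold change was 0.11 (SE 0.20, limma adjusted p = 0.715) at 1h. It was 3.56 (SE 0.20, adjusted p = 3.35e-07) at 12h, then 4.44 (SE 0.20, adjusted p = 1.84e-08) at 48h. At 1h it was -0.54 (adjusted p = 0.0570) after median-of-ratios scaling, and with a replicate block added to that scaling (chosen after seeing the data) the same value passed as lower (adjusted p = 0.0208). The step from 12h to 48h was 0.87 (SE 0.20, adjusted p = 0.00553), and with only those 6 libraries in the fit its adjusted p was 0.0508. The gene record Gm49369 lies on the same strand, shares 6757 bases with Ctsd and went from 0.49 to 26.5 TPM, so the division of reads between the 2 records is uncertain.

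Ctse, the endosomal aspartic protease, was the highest cathepsin at 0h, with 12.47, 9.06 and 9.71 TPM, although its range overlapped that of Ctsc. It had 18.57, 18.63 and 13.59 TPM at 1h, 10.67, 11.74 and 10.23 TPM at 12h, and 18.77, 21.65 and 19.13 TPM at 48h, when it was the lowest of the 7. Levels were thus up at 1h, back in the 0h range at 12h, and up again at 48h on TPM as deposited. The log2 fold change was 0.93 (SE 0.18, limma adjusted p = 0.00110) at 48h and 0.86 (SE 0.18) from 12h to 48h. The rise at 1h, 0.69 (SE 0.18, adjusted p = 0.0160), was 0.04 (adjusted p = 0.928) after median-of-ratios scaling, and the fall from 1h to 12h, -0.62 (SE 0.18, adjusted p = 0.0271), was -0.30 (adjusted p = 0.220). The fall lost its call in 10 of 18 alternatives. The call at 1h was also lost without 0h replicate 2, 1h replicate 1 or 1h replicate 2, when the adjusted p lay between 0.0586 and 0.0622.

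Ctsa (protective protein) trims peptides and also holds neuraminidase 1 and β-galactosidase in a complex. It had 11.07, 6.94 and 7.70 TPM at 0h and 9.66, 9.69 and 8.94 TPM at 1h, which overlapped. The 12h libraries had 19.79, 18.75 and 19.30 TPM and the 48h libraries 40.35, 53.92 and 57.36 TPM, each above all earlier libraries. The log2 fold change was 1.19 (SE 0.19, limma adjusted p = 0.000816) at 12h and 2.56 (SE 0.19, adjusted p = 9.21e-07) at 48h. At 1h it was 0.16 (adjusted p = 0.556), and -0.49 (adjusted p = 0.0674) after median-of-ratios scaling.

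**Figure D2:**
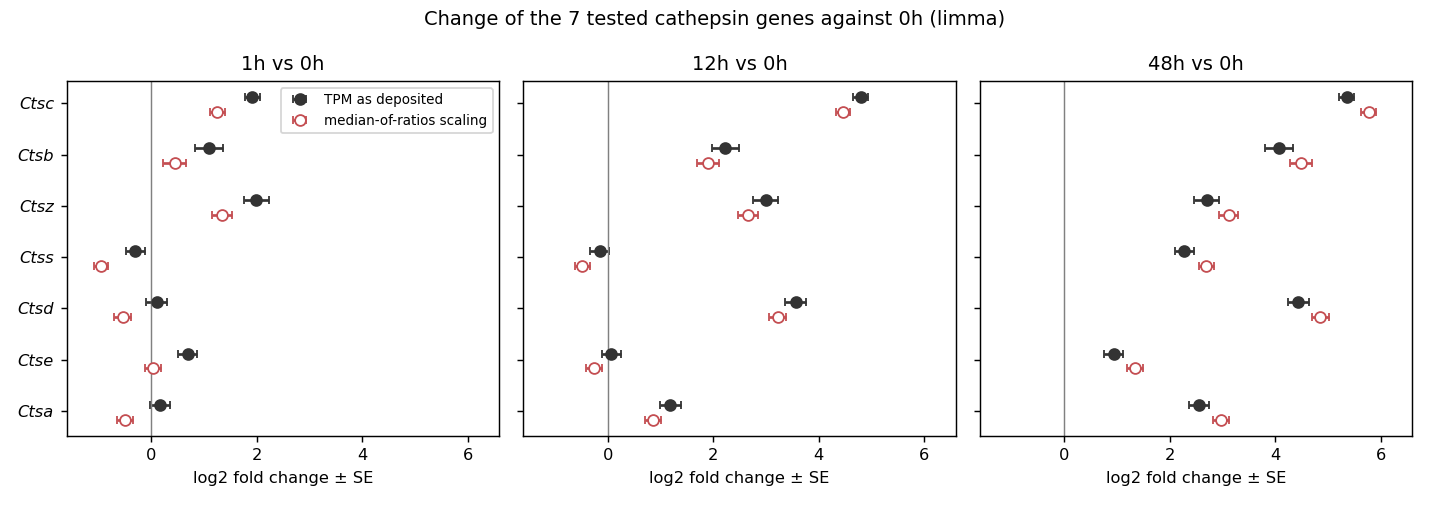
Log2 fold change (x axis, with SE as whisker) of the 7 tested cathepsin genes against 0h at 1h, 12h and 48h, on TPM as deposited (filled) and after median-of-ratios scaling (open). At 48h all 7 lie above 0 under both scalings, while at 1h the open points of Ctss, Ctsd and Ctsa lie below 0.

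Ctsl, Ctsk and Ctsh, of which Ctsk is known as the collagenase of osteoclasts, were near or at 0. Ctsl had 0.08, 0.03 and 0.11 TPM at 0h, 0.14 TPM in each 1h library, 0.05, 0.02 and 0.07 TPM at 12h, and 0, 0.05 and 0.20 TPM at 48h. Ctsk was listed at 0 in 10 of 12 libraries, with 0.09 TPM in 1 library at 1h and 0.08 TPM in 1 at 48h. Ctsh was above 0 in 4 libraries and nowhere above 0.06 TPM. Igf2r, a receptor gene of wide expression singled out after its values were seen, was also listed at 0 in all 12 libraries. Whether a value of 0 means no RNA or a failed estimate was not tested.

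From 1h to 12h, 5 members passed as higher (background 6.98%) and 1 as lower (background 15.0%), and from 12h to 48h 6 passed as higher (background 4.10%) and none as lower (background 31.7%). TPM are scaled to transcript length, so levels can be set side by side. At 0h the 7 genes lay between means of 5.08 and 10.4 TPM, and each overlapped its neighbour in that order. At 48h the order was Ctsc (359 TPM), Ctsd (115 TPM), Ctsb (89.9 TPM), Ctsa (50.5 TPM), Ctsz (41.6 TPM), Ctss (32.9 TPM) and Ctse (19.9 TPM). The libraries overlapped between Ctsd and Ctsb, between Ctsa and Ctsz, and between Ctsz and Ctss. Ctsc made up 17.1% of the summed cathepsin TPM at 0h and 51.0% at 48h, while Ctse went from 20.4% to 2.83%. Replicate 3 of 12h and of 48h had the most TPM outside the 20 most abundant genes at their time (94692 against 58343 and 65622 at 48h), and replicate 3 of 48h had the highest Ctsa, Ctsb, Ctsd and Ctsz values of that time. The SD of the summed TPM at 48h was 45.6 after median-of-ratios scaling and 95.2 before it.

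**Figure D3:**
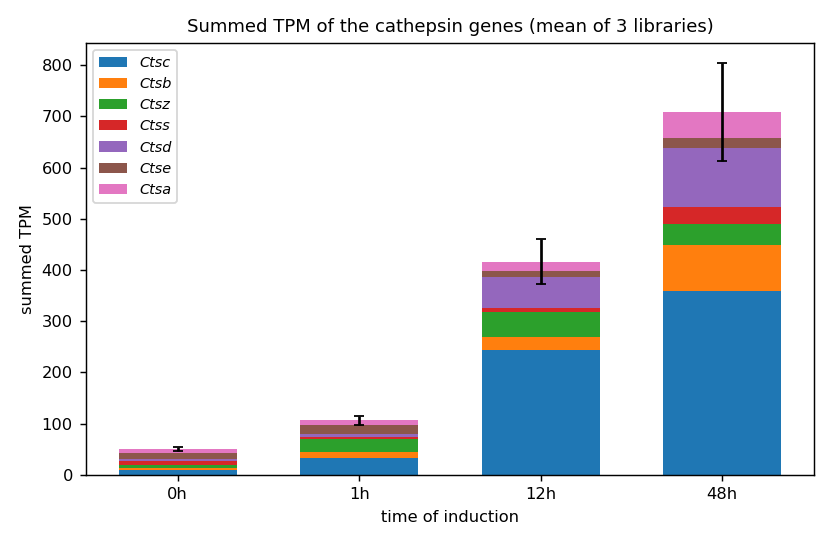
Mean TPM of the 7 expressed cathepsin genes stacked at each time of induction (linear axis from 0), with the SD of the summed TPM over 3 libraries as whisker. The sum goes from 50.8 to 709 TPM, and Ctsc makes up 51.0% of it at 48h.

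Among 9324 non-member genes with a mean of at least 1 TPM over the 12 libraries, the gene with the most similar log2 profile was Psap for Ctsd (Pearson r = 0.996, as a description of 12 libraries that share the same 4 time points). Psap encodes prosaposin, the precursor of the saposins, and had 15.2, 12.96 and 14.04 TPM at 0h and 166.35, 196.24 and 252.33 TPM at 48h. For Ctsc it was the chemokine gene Ccl2 (r = 0.995), for Ctsb Znfx1 (r = 0.989), for Ctsa Ifi27l2a (r = 0.989), for Ctss Ifit2 (r = 0.986), for Ctsz Gm48368 (r = 0.980) and for Ctse Rgs2 (r = 0.954). Znfx1, Ifi27l2a and Ifit2 are known as interferon-induced genes. Among members, Ctsa and Ctsb were most alike (r = 0.957), followed by Ctsc and Ctsd (r = 0.951), and Ctse was least like any other (at most 0.624, with Ctss). After median-of-ratios scaling the nearest genes of Ctsa, Ctse, Ctss and Ctsz were others (Sp110, Slfn9, Pim1 and Vim), and those of Ctsb, Ctsc and Ctsd were the same.

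Cathepsin activity also depends on inhibitors, partners and sorting. Of 13 inhibitor genes, 11 were in the table and 3 were tested. At 48h against 0h, 2 of the 3 passed as higher (background 15.9%). Cst3, the secreted cystatin C, had 32.53, 31.87 and 28.72 TPM at 0h and 73.6, 87.21 and 122.18 TPM at 48h (log2 fold change 1.57, SE 0.22). Cstb, a cytosolic stefin, had means of 5.02 and 23.5 TPM (2.19, SE 0.20), and had reached 22.7 TPM by 12h on TPM as deposited. After median-of-ratios scaling its log2 fold change against 0h was 1.80 at 12h and 2.60 at 48h. Cst7, cystatin F, was 5.40 TPM at 0h, 1.78 TPM at 12h, where it passed as lower (-1.58, SE 0.36), and 3.47 TPM at 48h (-0.67, SE 0.36, not passed). Of the 13 other cathepsin genes, 2 were tested and neither passed at any step, and Ctso had 1.03 TPM at 0h and 1.36 TPM at 48h.

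Of 10 processing, partner and sorting genes, 8 were tested at 48h against 0h, with 4 higher (background 15.9%) and 1 lower (background 27.2%). After median-of-ratios scaling 6 were higher and 1 lower, while 4025 of all 16415 tested genes were higher and 3614 lower. The following values are for TPM as deposited. Psap was higher (3.84, SE 0.18). Lgmn, the asparaginyl endopeptidase legumain that processes cathepsins, fell from 8.63 to 3.74 TPM at 12h (-1.18, SE 0.15) and then rose to 20.9 TPM at 48h (1.27 against 0h, SE 0.15). Gnptab, a subunit of the enzyme that makes the mannose 6-phosphate tag, fell from 3.50 to 1.39 TPM at 48h (-1.29, SE 0.24). Neu1, the partner of Ctsa, rose from 2.79 to 4.84 TPM (0.78, SE 0.25, limma adjusted p = 0.0222). M6pr, a mannose 6-phosphate receptor named after its values were seen, rose from 6.48 to 10.4 TPM (0.67, SE 0.18).

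Of the 4 lysosomal transcription factors (Tfeb, Tfe3, Tfec and Mitf), all 4 were higher at 12h against 0h (background 22.3%) and 2 at 48h (background 15.9%). Tfeb had 2.83, 7.49, 7.19 and 3.48 TPM in order of time, and passed at 1h and 12h but not at 48h (limma adjusted p = 0.608). Tfe3 had 2.43, 4.70, 9.26 and 3.57 TPM, and it too passed at 1h and 12h but not at 48h (adjusted p = 0.177). After median-of-ratios scaling neither passed at 1h, Tfeb no longer passed at 12h (adjusted p = 0.0585) and Tfe3 passed as higher at 48h (0.93, adjusted p = 0.00824). The 2 factors higher at 48h were Mitf and Tfec, named after their values were seen, with at most 2.03 TPM. Their 0h means were 0.07 and 0 TPM, so both passed the filter only through later libraries, which favours a call as higher. Of 7 granule serine proteases that Ctsc activates, 1 (Prtn3, also named after its values were seen) was tested. It had 0.19 TPM at 0h, 2.36 TPM at 12h (higher, 3.25, SE 0.70) and 0.77 TPM at 48h (not passed as deposited, and higher after median-of-ratios scaling, 2.13, adjusted p = 0.0198).

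Markers of cell identity moved with the cathepsins. The summed TPM of 11 Pre-B markers was 268 to 304 at 0h and 16.0 to 24.7 at 48h, and all 11 were lower at 48h (background 27.2%). That of 9 macrophage markers was 3.65 to 5.11 at 0h, 229 to 327 at 12h and 191 to 269 at 48h. Lyz2 made up the largest part of this sum (171 to 253 TPM at 12h and 94.7 to 122 TPM at 48h). On TPM as deposited, Lyz2 was lower at 48h than at 12h (background 31.7%). Of the 8 tested markers, 5 were higher at that step (Itgam, Fcgr1, Cd68, Msr1 and Mrc1, background 4.10%). After median-of-ratios scaling 7 were higher and 0 lower between 12h and 48h (backgrounds 10.5% and 11.9%), so the direction of the deposited sum depends on the scaling. Against 0h, 7 of the 8 were higher at 48h (background 15.9%). The exception was Mrc1, with means of 0.42 TPM at 0h, 0.05 TPM at 12h and 0.63 TPM at 48h. Mrc1 was called lower at 12h against 0h (-1.76, limma adjusted p = 0.00440, background 7.82%) and did not pass at 48h (adjusted p = 0.342). The ninth, Adgre1, which encodes F4/80, had 0.29 TPM in 1 library at 48h and 0 in the other two. The 8 neutrophil markers summed to at most 13.7 TPM at 12h and 3.43 TPM at 48h, with Mpo and S100a9 at 0 in every library. The 2 that were tested (Camp and S100a8) were higher than at 0h at both times (backgrounds 22.3% at 12h and 15.9% at 48h). With 0h means of 0.06 and 0 TPM, both passed the filter on mean TPM only through later libraries. The filter thus favoured a call as higher, and the background does not correct for that. The same holds for Itgam, Fcgr1, Msr1 and Cd14 among the macrophage markers, with 0h means of at most 0.06 TPM. T cell, erythroid and fibroblast markers did not exceed a sum of 0.09 TPM in any library. The part of these marker changes in the cathepsin changes was not tested.

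The PCHi-C lists name the fragments in contact with the promoter fragment of each gene. With 1 merged list per time point there is no replicate check, so the counts below are descriptions without a test. All 10 members had a promoter bait, and together they had 90 contacts at 0h. The later lists held 77 (1h), 101 (12h) and 133 (48h). The lists themselves held 138769, 137836, 131598 and 144072 contacts, with a median of 5 per gene at each time. Of the 90 contacts at 0h, 53 were also listed at 48h (58.9%, Wilson 95% interval 48.6 to 68.5%, counting error only), against 55.9% of all contacts in the 0h list. When the other fragment could lie within 10 kb, 77 of 90 (85.6%) were found again.

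**Figure D4:**
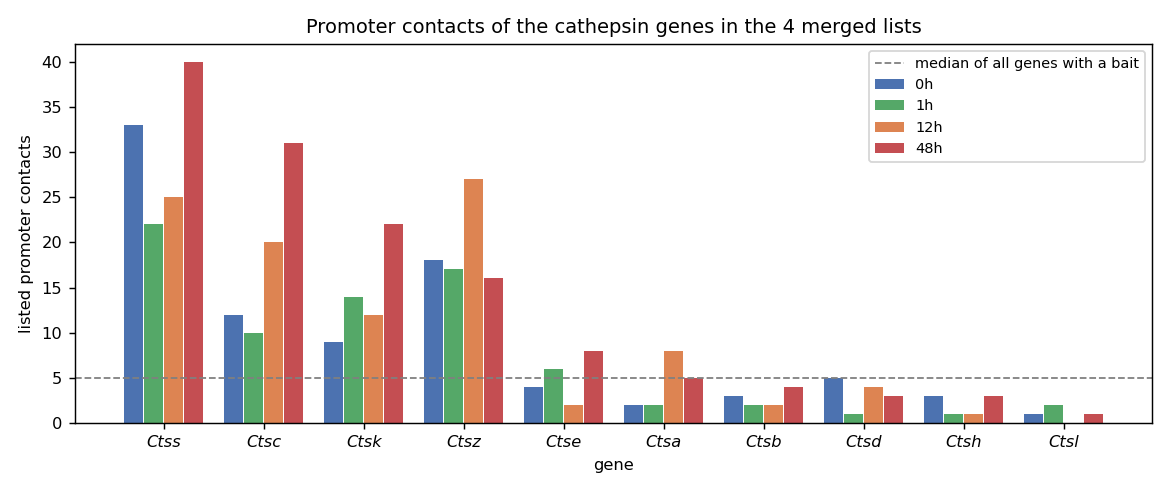
Number of listed promoter contacts (linear axis from 0) of each cathepsin gene in the merged lists of 0h, 1h, 12h and 48h, with the median of all genes with a bait as dashed line. Ctsc goes from 12 to 31 contacts, Ctsk from 9 to 22, and Ctss has the most at each time except 12h, when Ctsz has 27.

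The Ctsc promoter (gene at chr7:88278085-88310888, plus strand) had 12 contacts at 0h and 10 an hour later, then 20 (12h) and 31 (48h). The gain of 19 contacts was matched or exceeded by 1.97% of the 23193 genes with a bait. All contacts lay upstream of the gene. At 0h they lay 44.5 to 82.1 kb away. At 48h 12 of the 31 lay over 100 kb away, up to 184 kb, and 11 of these 12 were listed at 48h only. A core of 8 contacts, 44.5 to 71.4 kb upstream, was in all 4 lists. None of the contacted fragments was itself a promoter bait.

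The Ctsd promoter (gene at chr7:142375911-142388038, minus strand) had 5, 1, 4 and 3 contacts. At 0h all 5 lay 141 to 279 kb upstream and included the fragments with the starts of H19 and Igf2, an imprinted pair of genes. None of the H19 and Igf2 fragments was listed at 12h or 48h. The fragment with the start of Lsp1, a leukocyte protein gene, lay 76.4 kb upstream and was listed at 12h and 48h only. Ctsd, whose level rose 22.7-fold, had fewer listed contacts at 48h than at 0h, a change of -2 or lower that 30.6% of genes had. Its 0h scores were between 5.37 and 7.67, close to the lowest score in the list of 5.

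**Figure D5:**
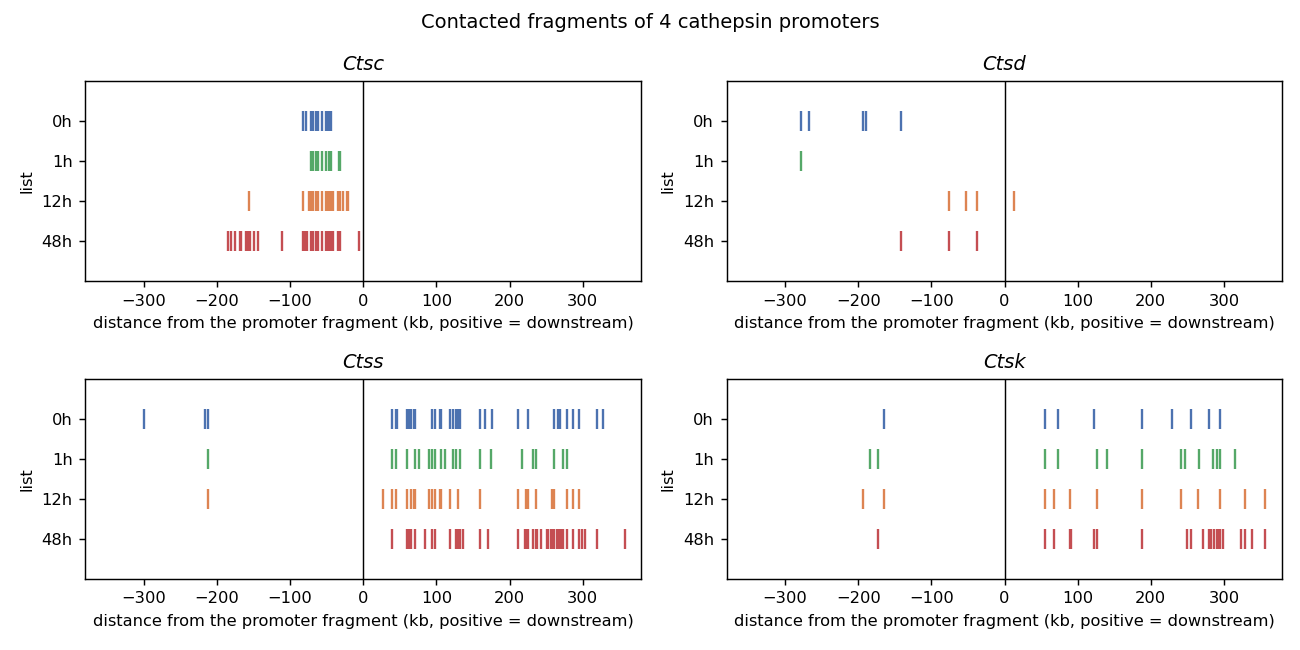
Distance in kb from the promoter fragment to each contacted fragment (vertical marks; 0 is the promoter, positive values lie downstream in the direction of transcription) for Ctsc, Ctsd, Ctss and Ctsk in the 4 lists. Ctsc gains fragments beyond 100 kb upstream at 48h, and the Ctsd marks move from 141 to 279 kb at 0h towards the gene at 12h.

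Ctsk (chr3:95499256-95509362, plus strand) and Ctss (chr3:95526786-95556403, plus strand) are neighbours with starts 27.5 kb apart. Ctss had 33, 22, 25 and 40 contacts and the nearly silent Ctsk 9, 14, 12 and 22. The gain of 13 contacts at Ctsk between 0h and 48h was matched or exceeded by 4.09% of genes. The promoters contacted 5 fragments in common at 0h, 7 in each of the lists of 1h and 12h, and 18 in that of 48h, and were not listed in contact with each other. Among Ctss contacts, 25 of 40 at 48h and 13 of 33 at 0h lay over 200 kb away, all of the former downstream. Ctsk was listed at 0 in all 12h libraries and in 2 of the 48h libraries.

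The other members had counts without a steady direction. Ctsz had 18, 17, 27 and 16 contacts, with the most at 12h. Ctsa had 2, 2, 8 and 5, Ctsb 3, 2, 2 and 4, and Ctse 4, 6, 2 and 8. Ctsh had 3, 1, 1 and 3 contacts and Ctsl 1, 2, 0 and 1. The Ctsl contact listed at 0h, 1h and 48h lay on chromosome X, while the gene is on chromosome 13. The promoter fragment of Ctsa also holds the starts of Neurl2 and Spata25, so its contacts cannot be assigned to Ctsa alone. Those of Ctss and Ctsz also hold the starts of Hmgb1-ps5 and Rpl30-ps5. Ctsb, whose level rose 17.6-fold between 0h and 48h, gained 1 contact, which 42.6% of genes matched or exceeded. The relation of contact counts to RNA levels was not tested for any member.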

How the data were processed

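RNA-seq of 12 libraries and PCHi-C of 4 time points were used, and Hi-C was not analysed here. The authors depleted ribosomal RNA, trimmed reads with Trim Galore 0.6.2, mapped them to mm10 with HISAT2 2.1.0 and deposited RSEM TPM per gene. TPM keep no depth, so the depth behind each value is unknown here. The authors merged 2 PCHi-C replicates, called contacts with CHiCAGO, and deposited a score for 0h and whole numbers of unnamed unit for 1h, 12h and 48h, of which only the presence of a contact was used. Contacts are pairs of HindIII fragments, counted once, at baits that hold a GENCODE M21 start of the gene.

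The test used log2(TPM + 0.1) of the 16415 genes averaging 0.1 TPM or more, in limma 3.58.1 under R 4.3.3 (1 model, eBayes with trend, 5 contrasts). A gene passed at an adjusted p under 0.05. The model was tested on simulated data. Group replicates are separate biological replicates per the labels, no 2 libraries were identical, and replicate numbers did not pair the samples by the rule that every pair must correlate over 0.1 (same-number correlations between -0.01 and 0.26, 7 of 18 over 0.1, of which 5 were pairs of replicate 3). Python 3.11.15 and matplotlib were used for the rest.

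The members, gene lists and markers were chosen with earlier results of these data known. From each list other than the members at most 4 genes are named, those with the largest log2 fold change at 48h among genes with a mean of at least 1 TPM, and for each tested member the gene most correlated with it. Igf2r, M6pr, Mitf, Tfec and Prtn3 were named outside this rule, after their values were seen. Cell type markers have no such rule, and those named were chosen after their values were seen. Alternatives varied the pseudocount, filter, scaling, trend, block, libraries and thresholds.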

Additional observations from a re-analysis of the deposited data

How the results depend on the processing

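For the 7 tested members and 5 comparisons (35 values), 630 values were recomputed under the alternatives. Of these, 578 kept their direction and side of the threshold, 26 lost the call, 8 gained one and 18 turned direction. All 126 values of 48h against 0h kept both. Higher and lower calls were counted together, so a change of direction can leave the number of members passed alike. At 1h against 0h, 4 higher and 0 lower became 2 higher and 1 lower after median-of-ratios scaling, which is not among the cases that follow. The number of members passed moved by over 1.5 times in these cases. With no filter on low values, 3 passed at 12h against 1h. Without 1h replicate 1, 2 passed at 1h against 0h. With a log2 fold change beyond 1 required, 3 passed at 48h against 12h. With one beyond 2, 0 passed at 1h against 0h, 2 at 12h against 1h and 1 at 48h against 12h. Leaving out 1 library gave 2 to 4 members at 1h against 0h, the lowest without 1h replicate 1, 5 at 12h against 0h, 5 to 6 at 12h against 1h, 6 at 48h against 12h and 7 at 48h against 0h.

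The values that turned direction changed mainly with scaling, which moves the median of all genes. Under median-of-ratios scaling, without the 20 most abundant genes and under quantile normalization, in this order, Ctse at 12h against 0h was -0.26, -0.14 and -0.19, Ctsa at 1h was -0.49, -0.32 and -0.39, Ctsd at 1h was -0.54, -0.37 and -0.46, and Ctsz at 48h against 12h was 0.46, 0.26 and 0.35. Leaving out 1 library gave Ctse at 12h -0.019 to 0.21, negative only without 0h replicate 2. The summed TPM were 54.8, 72.4, 354 and 1011 at 0h, 1h, 12h and 48h after median-of-ratios scaling, and 55.7, 83.2 and 984 at 0h, 1h and 48h without the 20 most abundant genes. Leaving out 1 replicate, they ranged from 48.8 to 52.2, 102 to 111, 392 to 436 and 665 to 760.

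The replicate numbers did not pair all samples, although the replicate 3 libraries correlated with each other. With replicate 3 of all 4 time points left out, a setting chosen after seeing the data, 7, 5, 4, 6 and 6 members passed in the order given next, and Ctss at 12h against 1h was -0.00092, the only value that turned. With the replicate block, 7, 5, 4, 6 and 6 members passed at 48h, 12h and 1h against 0h, 12h against 1h and 48h against 12h, and no member's call changed. The block with median-of-ratios scaling, chosen after seeing the data, gave 7, 6, 4, 6 and 6. There Ctse at 12h was -0.26, Ctsa at 1h -0.49, Ctsd at 1h -0.54 (called lower, limma adjusted p = 0.0208) and Ctsz at 48h against 12h 0.46. These counts pool higher and lower calls. The 4 at 1h with the replicate block alone were all higher, while the 4 with the added scaling include Ctsd as lower, so they are not the same calls. Of the 90 contacts at 0h, 5 had a score of at least 10, a threshold that could be applied to that list only, and counting other fragments within 10 kb as shared raised 58.9% to 85.6%. TPM hold no depth, and the contact lists hold no replicates.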
